A study of Arabidopsis thaliana with 12 samples.

Results

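The genes described here are those whose transcript level was lower with cytokinin in cultured Arabidopsis root explants labelled CPL4RNAi and nearly the same with and without cytokinin in wild type. They were selected on measured values, namely the 4 group levels in FPKM, a read count scaled to transcript length and library size. A gene was taken when its level with cytokinin was at or under 0.55 of its level without in the explants labelled CPL4RNAi, and between 0.8 and 1.25 of it in wild type. It also needed at least 2 FPKM in the untreated explants labelled CPL4RNAi and at least 1 FPKM in untreated wild type. Of 33557 features 113 met the rule. The FPKM minimums alone were met by 16881 features, of which the 113 are 0.669%, and 14888 of these also lay in the wild-type window. Because the rule read both cytokinin comparisons, the size of those 2 effects is a description here and was not tested.

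All explants were root segments of Columbia background, cut from 10-day seedlings whose shoots had been removed. They spent 5 days on callus-inducing medium and then 72 hours on a modified shoot-inducing medium with 0.05 mg/L or 0 mg/L of the cytokinin 2iP (isopentenyladenine), reaching an age of 18 days. The wild type was Col-0 gl1. The other line is called CPL4RNAi in the sample titles, CPL4 KO in the genotype field and a knockdown in the series' design; the labels give neither its promoter nor the number of independent lines. The 12 samples form 4 groups of 3 biological replicates, sequenced as total RNA depleted of ribosomal RNA. The deposited values are 1 level per group, so no spread between replicates can be shown, and the errors below are those implied by the authors' p-values. Depth per library is unknown. Where a pair of levels is given for a line, the level without cytokinin comes first and the level with cytokinin second.

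CPL4 encodes a phosphatase of the carboxy-terminal tail of RNA polymerase II, the targeted gene of the line. It was at 14.5 FPKM without and 13.9 FPKM with cytokinin in wild type, and at 36.3 and 32.2 FPKM in the groups labelled CPL4RNAi. The targeted transcript was thus higher, not lower, where the label says knockdown, and every direction given here is between the groups as labelled. Whether reads of an RNAi construct were counted in this gene was not tested. Of the labelled tissue, the 6 root markers were present and summed to 292 and 246 FPKM in wild type and to 190 and 133 FPKM in the groups labelled CPL4RNAi. Without cytokinin 1 of them was called higher in the group labelled CPL4RNAi, the endodermal CASP1 at 9.07 against 26.5 FPKM, and 3 lower, among them WOX5 of the quiescent centre at 155 against 55.2 FPKM. The 3 callus markers were all called lower there, among them LBD16 at 78.5 against 35.0 FPKM. The 3 green-tissue markers summed to at most 0.435 FPKM in any group. The 5 shoot meristem markers summed to 12.5 and 13.4 FPKM in wild type and to 68.9 and 78.6 FPKM in the groups labelled CPL4RNAi. CLV3 was at most 0.0863 FPKM and WUS at most 1.32 FPKM in any group, so STM, CUC1 and CUC2 held most of the sums. All 4 markers that were tested without cytokinin were called higher in the group labelled CPL4RNAi. Of 37 tested shoot meristem and organ boundary genes, 15 were called higher and 13 lower there. Over all genes tested 22.5% were higher and 21.5% lower.

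Cytokinin is perceived by histidine kinase receptors, passed on through phosphotransfer proteins and read out by type-B response regulators, which are transcription factors. Their direct targets include the type-A response regulators, which dampen the pathway, and LOG enzymes release active cytokinin from its nucleotide precursors. In root explants on shoot-inducing medium cytokinin promotes shoot meristem formation against a background of auxin-induced callus. Many genes are also repressed by cytokinin, and the set below holds those that were at the rule's ratio in the groups labelled CPL4RNAi while wild type stayed within its window.

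The 250 bases upstream of the annotated start are shown for 5 members, in the RefSeq annotation of assembly TAIR10.1 and on the strand of the gene. LAC3 is shown as the member with the lowest ratio, GER2 as the one farthest below wild type, WRKY71 as a transcription factor well above wild type, and UGT74F2 and UGT74F1 because they are members lying side by side. Capitals mark AGATT or its reverse complement AATCT, the core letters bound by type-B response regulators, and none of the windows overlaps another gene.
LAC3 (chr2:12889932-12890181, minus strand): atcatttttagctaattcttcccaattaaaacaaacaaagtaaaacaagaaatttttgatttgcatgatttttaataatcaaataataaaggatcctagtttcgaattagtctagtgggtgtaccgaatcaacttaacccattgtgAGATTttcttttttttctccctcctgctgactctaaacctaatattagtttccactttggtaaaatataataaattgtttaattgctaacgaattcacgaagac
WRKY71 (chr1:10454183-10454432, plus strand): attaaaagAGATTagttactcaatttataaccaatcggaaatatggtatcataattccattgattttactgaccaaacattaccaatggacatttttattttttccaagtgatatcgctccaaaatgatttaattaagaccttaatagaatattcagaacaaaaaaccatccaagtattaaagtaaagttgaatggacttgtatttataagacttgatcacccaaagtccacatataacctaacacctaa
GER2 (chr5:15693736-15693985, minus strand): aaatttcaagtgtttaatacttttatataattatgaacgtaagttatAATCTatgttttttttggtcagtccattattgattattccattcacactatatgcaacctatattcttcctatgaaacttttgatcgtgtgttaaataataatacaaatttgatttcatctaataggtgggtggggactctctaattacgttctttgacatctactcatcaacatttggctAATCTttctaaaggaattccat
UGT74F2 (chr2:18151828-18152077, plus strand): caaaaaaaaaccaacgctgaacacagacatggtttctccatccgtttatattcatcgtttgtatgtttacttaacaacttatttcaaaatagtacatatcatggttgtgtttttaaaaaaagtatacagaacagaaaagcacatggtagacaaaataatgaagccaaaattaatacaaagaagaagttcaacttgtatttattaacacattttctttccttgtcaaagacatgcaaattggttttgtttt
UGT74F1 (chr2:18157279-18157528, plus strand): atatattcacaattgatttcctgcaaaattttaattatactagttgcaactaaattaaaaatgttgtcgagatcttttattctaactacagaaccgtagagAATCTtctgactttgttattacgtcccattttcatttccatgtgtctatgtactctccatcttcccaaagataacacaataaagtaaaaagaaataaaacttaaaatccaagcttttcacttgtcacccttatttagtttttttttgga
The core occurs once in the windows of LAC3, WRKY71 and UGT74F1, 2 times in that of GER2 and 0 times in that of UGT74F2. A match is a run of letters and not evidence of binding.

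Over all 113 members the median level was 6.76 FPKM in untreated wild type and 6.52 FPKM in wild type with cytokinin. In the groups labelled CPL4RNAi it was 8.61 FPKM without and 4.33 FPKM with cytokinin. The ratio with to without cytokinin ran from 0.253 to 0.549 in the groups labelled CPL4RNAi, with 64 members at or under 0.5. In wild type it lay below 1 in 73 members and above 1 in 40, with a median log2 difference of -0.07. The median was 0.01 over the 14888 features that met the FPKM minimums and lay in the wild-type window. The untreated group labelled CPL4RNAi had the highest of the 4 levels in 62 members, and the treated group labelled CPL4RNAi had the lowest in 94. These orderings follow largely from the rule. The shares of all genes with these orderings, or with a wild-type ratio below 1, were not computed, and nothing is read from the counts. Levels of the members were lower than those of the features that met the FPKM minimums, whose median in untreated wild type was 17.5 FPKM. In these bulk samples fewer cells of a type and less RNA per cell cannot be told apart.

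The authors' own Cuffdiff test called 103 of the 113 lower with cytokinin in the groups labelled CPL4RNAi at a deposited q of 0.05, against 8.88% of the 19156 genes tested there, a contrast the rule had used. The 10 members not called had deposited q-values from 0.0569 for UGT74F1 to 0.251 for RABA6b. In wild type 4 members were called, where 10.3% of 18827 genes were called in either direction. These were PAL2, higher with cytokinin at a ratio of 1.2, and HIR2, UPI and AT5G19740, lower at 0.819, 0.830 and 0.811. So 4 members did respond to cytokinin in wild type by the authors' test, within the window the rule allows. At the limit of 0.55, CLV1 and AT5G19025 lay just inside at 0.549 and 0.548, and AT4G15610 and ENODL8 just outside at 0.5507 and 0.5508. At the wild-type limit of 0.8, DMP1 at 0.802 was inside and LEC1 at 0.799 outside; at 1.25, LBD33 at 1.249 was inside and AT2G35760 at 1.254 outside. At the minimum of 2 FPKM in the untreated group labelled CPL4RNAi, AT1G27670 at 2.01 FPKM was inside and AT5G59760 at 1.92 FPKM outside. At the minimum of 1 FPKM in untreated wild type, AGL102 at 1.1 FPKM was inside and AT1G35330 at 0.773 FPKM outside.

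**Figure D1:**
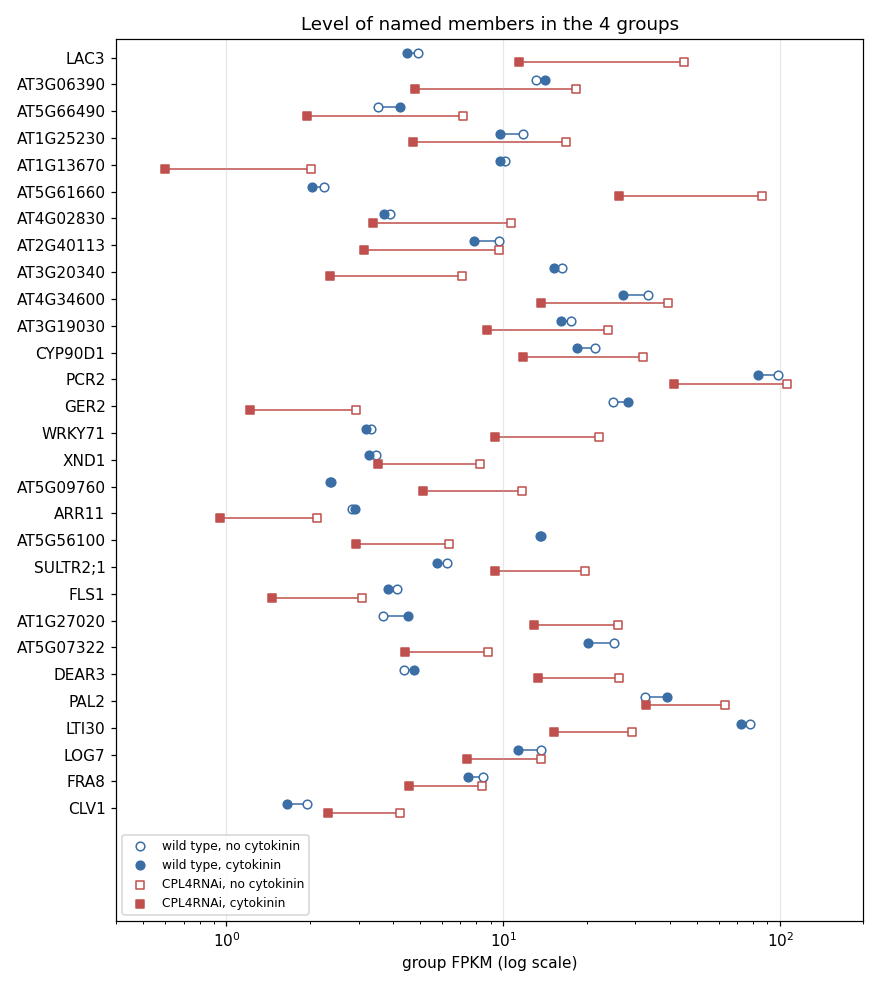
Group FPKM on a log axis for 29 members, with circles for wild type, squares for the groups labelled CPL4RNAi, open symbols without and filled symbols with cytokinin, in order of the ratio with to without cytokinin in the groups labelled CPL4RNAi. The pairs of circles nearly touch while the squares lie apart, and the squares stand to the right of the circles for LAC3, AT5G61660 and WRKY71 and to the left for GER2 and AT1G13670.

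The genotype difference of the members was described in each medium, since both comparisons share groups with the rule. Without cytokinin the deposited q called 40 members higher in the group labelled CPL4RNAi (35.4%, against 22.5% of the 19277 genes tested) and 19 lower (16.8%, against 21.5%). With cytokinin it called 12 higher (10.6%, against 24.7% of 19209 genes) and 73 lower (64.6%, against 24.7%). The rule itself lowers the genotype difference by at least 0.54 on the log2 scale from one medium to the other, so the shift between these counts is no finding. Both untreated levels enter the rule too, so the starting difference is not free of it either. By both calls together 44 of the 113 members were not called without cytokinin and lower with it, against 6.55% of the 18949 genes tested in both media. In both media 19 members were lower (against 18.2%) and 12 higher (against 17.7%). A further 18 were higher without cytokinin and not called with it (against 4.64%), 10 went from higher to lower (against 0.206%) and 10 were called in neither medium (against 42.2%). Without cytokinin 56 members lay within 0.5 log2 of wild type, against 67.5% of those genes, and with cytokinin 22 did, against 62.7%. The rule used these levels, and nothing is read from the shares.

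**Figure D2:**
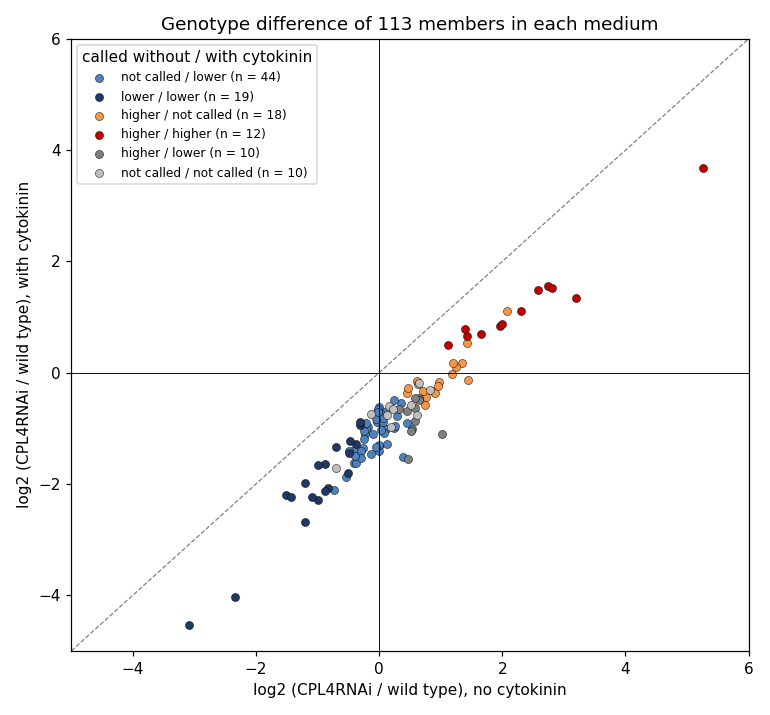
Log2 ratio of the group labelled CPL4RNAi to wild type without cytokinin (horizontal axis) and with cytokinin (vertical axis), 1 point per member, coloured by the deposited calls in each medium. All 113 points lie below the dashed line of equal values, as the rule requires, and the range along it runs from GER2 at -3.08 and -4.54 to AT5G61660 at 5.25 and 3.68.

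The mean of the 2 genotype differences was computed as a measure of a member's level between the lines over both media. Calls came from a two-sided normal test with a standard error implied by the deposited p-values and Benjamini-Hochberg adjustment over all 18514 genes that could be tested. Of 110 members tested, 23 were higher in the groups labelled CPL4RNAi (20.9%, against 31.3% of all genes tested) and 53 lower (48.2%, against 30.7%), and 34 were not called. The median mean difference was -0.35 log2 in the members and 0.01 log2 over all genes tested. The mean is built from the same 4 levels as the rule, and its error is uncorrelated with the cytokinin effects only if the groups vary equally. Among the 19 members whose group variances could all be solved, its implied correlation with the cytokinin effect in the groups labelled CPL4RNAi had a median of 0.261 (range -0.282 to 0.768), against 0.00362 over the 9094 genes of that kind. The counts are therefore not independent of the rule, and the mean difference of each member is given below as a description, with its implied standard error and no test. For 62 of the 110 members that standard error is known only as the largest value that the p-value floor allows, written as an upper bound. The 48 members with a solved standard error held 2 higher and 17 lower calls, against 29.2% and 29.5% of the 17042 genes of that kind. Among the 16 of those 19 members that could be tested, the plain mean called 1 higher and 3 lower, where 40.6% of 8768 genes were called in either direction. A mean weighted by the inverse of the implied variances, built so that this correlation is 0, called 1 higher and 1 lower, where 39.4% of those genes were called.

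**Figure D3:**
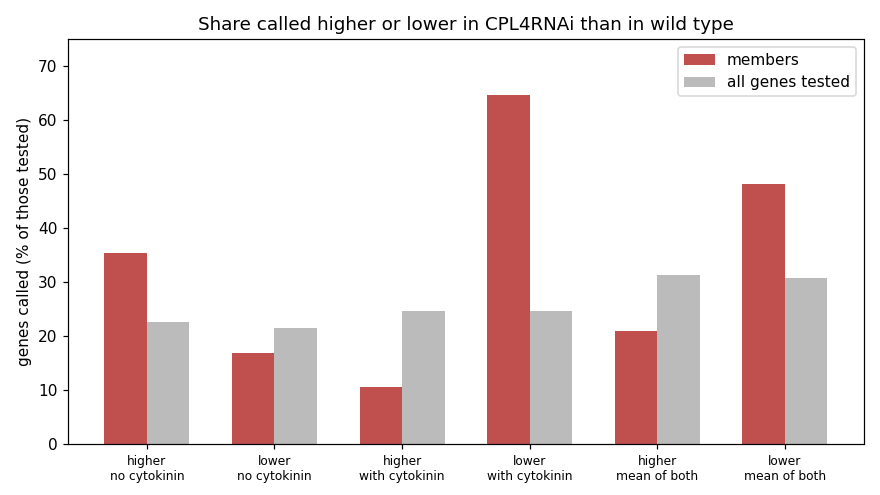
Percentage of members (red) and of all genes tested (grey) called higher or lower in the groups labelled CPL4RNAi than in wild type, without cytokinin, with cytokinin and for the mean of both media. The members stand at 64.6% lower with cytokinin against 24.7% of all genes. Every comparison shown, the mean of both media included, uses group levels that the rule read.

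**Figure D4:**
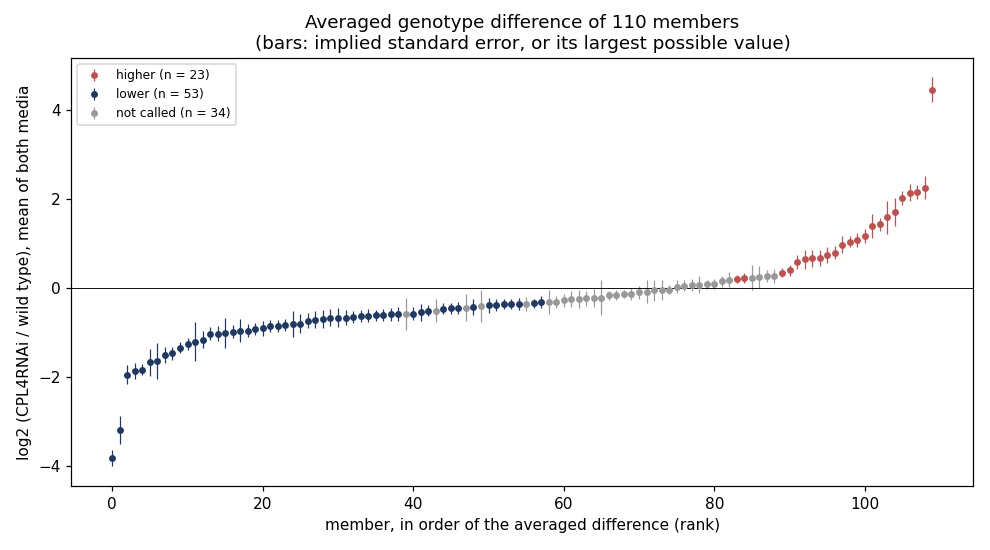
Mean over both media of the log2 ratio of the groups labelled CPL4RNAi to wild type for 110 members in rank order, with bars of 1 implied standard error or the largest value it can take, coloured by the call. The members run from -3.81 for GER2 to 4.47 for AT5G61660, and 34 grey points were not called. The calls use group levels that the rule read, and for 62 of the 110 members the error is only an upper bound.

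The set held 2 genes of the cytokinin pathway lists. LOG7, an enzyme that releases active cytokinin, was at 13.7 FPKM without and 11.3 FPKM with cytokinin in wild type and at 13.7 and 7.37 FPKM in the groups labelled CPL4RNAi. The untreated levels were thus nearly the same in both lines and the treated group labelled CPL4RNAi was the lowest of the 4. Of the 14 measured genes of cytokinin synthesis and activation LOG7 was the only member. The deposited test called 2 of 9 tested genes of that list higher and 4 lower with cytokinin in the groups labelled CPL4RNAi, against 1 higher and 2 lower in wild type. Of all genes tested, 8.88% were called lower in the groups labelled CPL4RNAi and 10.3% in either direction in wild type. LOG3 and LOG4, close relatives of LOG7, were called lower in both lines: LOG4 was at 14.8 and 8.97 FPKM in wild type and 13.4 and 5.72 FPKM in the groups labelled CPL4RNAi. LOG1 was called lower in the groups labelled CPL4RNAi, from 0.991 to 0.364 FPKM, and not in wild type, at 2.45 and 2.41 FPKM. It missed the FPKM minimum of the rule, and whether its response differed between the lines was not tested.

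ARR11, a type-B response regulator, was at 2.83 and 2.92 FPKM in wild type and at 2.13 and 0.952 FPKM in the groups labelled CPL4RNAi. Its averaged genotype difference was -1.01 ± 0.17 log2 (implied standard error, an upper bound). Other type-B regulators were closer between media: ARR1, listed as RR1, was at 22.3 and 17.8 FPKM in the groups labelled CPL4RNAi, and ARR12, listed as RR12, at 20.6 and 21.4 FPKM. ARR2, listed as RR2, was at 10.2 and 7.83 FPKM there. Like ARR11, both ARR1 and ARR2 were called lower with cytokinin in the groups labelled CPL4RNAi and not called in wild type. Of 34 tested cytokinin signalling genes 16 were called higher and 6 lower with cytokinin in explants labelled CPL4RNAi. In wild type 14 of 35 tested were called higher and 2 lower. Over all genes tested, 8.88% were called lower in explants labelled CPL4RNAi and 10.3% in either direction in wild type. The share called higher in explants labelled CPL4RNAi was not computed, so counts called higher there have no background. This holds for every list and family described here, and none was tested as a set. Type-A regulators were among those called higher in both lines; ARR7 went from 9.54 to 33.5 FPKM in wild type and from 6.35 to 46.7 FPKM in the groups labelled CPL4RNAi. The untreated and treated media therefore differed in cytokinin response genes in both lines, while the 113 members differed at the rule's ratio in one.

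Receptors and signalling proteins formed a second group. CLV1, the receptor kinase of the CLV3 peptide that limits the stem cells of the shoot meristem, was at 1.95 and 1.65 FPKM in wild type and 4.23 and 2.33 FPKM in the groups labelled CPL4RNAi. Both labelled levels were above both wild-type levels, and the averaged difference was 0.80 ± 0.14 log2 (upper bound of the standard error). Of 36 tested genes of shoot meristem and organ boundary 5 were called higher and 6 lower with cytokinin in the groups labelled CPL4RNAi, and CLV1 was the 1 member among them. In wild type 4 of 33 tested were called higher and 1 lower. The shares over all genes were 8.88% lower in the groups labelled CPL4RNAi and 10.3% in either direction in wild type. NIK2, a leucine-rich repeat receptor kinase known for its binding to a viral shuttle protein, was at 7.76 and 7.20 FPKM in wild type and 21.0 and 11.4 FPKM in the groups labelled CPL4RNAi. Other kinases of the receptor class were not above wild type. AT4G02410, a lectin receptor kinase, was at 3.55 and 4.34 FPKM in wild type and 2.90 and 1.50 FPKM in the groups labelled CPL4RNAi. AT1G51890, a leucine-rich repeat kinase, was at 2.19 and 2.25 FPKM in wild type and 2.2 and 0.850 FPKM in the groups labelled CPL4RNAi. Its untreated levels were not called different between the lines.

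Other signalling members differed in where they started. CIPK17, a kinase that works with calcineurin B-like calcium sensors, was at 12.3 and 11.5 FPKM in wild type and 11.9 and 6.46 FPKM in the groups labelled CPL4RNAi. PLC1, a phospholipase C, was at 4.17 and 3.75 FPKM in wild type and 2.95 and 1.08 FPKM in the groups labelled CPL4RNAi; it was called lower in both media. RPT2, a component of phototropin signalling, was at 52.7 and 44.7 FPKM in wild type and 26.4 and 14.2 FPKM in the groups labelled CPL4RNAi. RPT2 was therefore lower in both media, with an averaged difference of -1.33 ± 0.12 log2 (upper bound of the standard error). RALFL32, a RALF-type signalling peptide, was at 27.9 and 31.9 FPKM in wild type and 41.9 and 17.4 FPKM in the groups labelled CPL4RNAi. SCRL7, a small cysteine-rich peptide gene, was at 69.1 and 64.0 FPKM in wild type and 107.7 and 45.2 FPKM in the groups labelled CPL4RNAi. Both peptide genes lie wholly inside genes on the opposite strand, AT4G14000 and AT1G60990, which stayed between 23.8 and 27.3 FPKM and between 7.32 and 8.75 FPKM over the 4 groups. The library kit keeps strand, but whether counting used it is not given in the sources used here.

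Transcription factors in the set started at very different levels. WRKY71, which promotes shoot branching, was at 3.31 and 3.19 FPKM in wild type and 22.2 and 9.34 FPKM in the groups labelled CPL4RNAi. Its averaged difference was 2.15 ± 0.19 log2 (upper bound of the standard error), so the treated labelled group stayed above both wild-type groups. DEAR3, a DREB-type factor with an EAR repression motif, was at 4.39 and 4.76 FPKM in wild type and 26.2 and 13.4 FPKM in the groups labelled CPL4RNAi. Its averaged difference was 2.03 ± 0.16 log2 (upper bound). WRKY74 was at 10.4 and 11.6 FPKM in wild type and 20.5 and 10.3 FPKM in the groups labelled CPL4RNAi. In WRKY74 the treated labelled level thus returned to that of wild type. WRKY71 and WRKY74 were 2 of the 48 WRKY genes that met the FPKM minimums, and of 54 tested WRKY genes 13 were called higher and 11 lower with cytokinin in the groups labelled CPL4RNAi. In wild type 8 of 55 tested were called higher and 4 lower. The shares over all genes were 8.88% lower in the groups labelled CPL4RNAi and 10.3% in either direction in wild type.

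XND1, a NAC factor that restrains xylem secondary wall formation, was at 3.46 and 3.28 FPKM in wild type and 8.24 and 3.52 FPKM in the groups labelled CPL4RNAi. The 3 lower levels lie close together and the untreated labelled group stands apart. AT5G07580, an ethylene-responsive factor, was at 5.10 and 4.11 FPKM in wild type and 13.3 and 7.09 FPKM in the groups labelled CPL4RNAi. AGL102, a MADS-box gene, was at 1.1 and 1.16 FPKM in wild type and 4.67 and 2.51 FPKM in the groups labelled CPL4RNAi. LBD33, a LOB-domain factor of lateral root initiation, was lower in both media. It was at 15.8 and 19.8 FPKM in wild type and 8.61 and 4.52 FPKM in the groups labelled CPL4RNAi, an averaged difference of -1.50 ± 0.18 log2 (solved standard error). HB30, a zinc-finger homeodomain factor, was at 3.54 and 3.48 FPKM in wild type and 3.68 and 1.97 FPKM in the groups labelled CPL4RNAi. Like LOG7 it was level between untreated lines. ABR1, a repressor of abscisic acid responses, was at 6.82 and 5.49 FPKM in wild type and 7.49 and 3.26 FPKM in the groups labelled CPL4RNAi, an averaged difference of -0.31 ± 0.28 log2 (solved standard error).

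The lowest ratio of the set belonged to a gene of the cell wall. LAC3, a laccase of the family that oxidises lignin precursors (chromosome 2, 12887446 to 12889931, minus strand), had a ratio of 0.253. It was at 4.93 and 4.5 FPKM in wild type and 45.0 and 11.4 FPKM in the groups labelled CPL4RNAi. The treated labelled group remained above both wild-type groups, and the averaged difference was 2.26 ± 0.26 log2 (upper bound of the standard error). LAC3 was the 1 member among 14 laccase genes in the table, and of 9 tested laccases 2 were called higher and 3 lower with cytokinin in the groups labelled CPL4RNAi. In wild type 5 of 8 tested were called higher and 0 lower. The shares over all genes were 8.88% lower in the groups labelled CPL4RNAi and 10.3% in either direction in wild type. FRA8, a glycosyltransferase of xylan synthesis, was at 8.47 and 7.46 FPKM in wild type and 8.39 and 4.58 FPKM in the groups labelled CPL4RNAi. Its untreated levels were nearly equal.

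XND1 and FRA8 belong to a list of xylem and secondary wall genes of which 22 of 43 tested were called lower and 2 higher with cytokinin in the groups labelled CPL4RNAi. In wild type 23 of 35 tested were called higher and 0 lower, so most of that list is outside the wild-type window of the rule. The shares over all genes were 8.88% lower in the groups labelled CPL4RNAi and 10.3% in either direction in wild type. The 5 xylem markers summed to 6.39 and 38.2 FPKM in wild type and to 68.3 and 44.1 FPKM in the groups labelled CPL4RNAi, and with cytokinin all 5 were called higher in wild type and all 5 lower in explants labelled CPL4RNAi. LAC3 is not in that list. The endodermal marker CASP1 was at 9.07 and 1.885 FPKM in wild type and 26.5 and 7.23 FPKM in the groups labelled CPL4RNAi. The part of xylem or endodermal cells in the levels of LAC3, XND1 and FRA8 was not tested.

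Pectin genes stood on both sides of wild type. AT3G61490, of the pectin lyase-like superfamily, was at 1.31 and 1.3 FPKM in wild type and 5.13 and 2.31 FPKM in the groups labelled CPL4RNAi. AT5G14650, of the same superfamily, was at 10.6 and 11.8 FPKM in wild type and 8.63 and 4.46 FPKM in the groups labelled CPL4RNAi. The former was thus above wild type in both media and the latter level without cytokinin and lower with it. AT5G09760, annotated as a pectin methylesterase inhibitor family protein, was at 2.38 and 2.37 FPKM in wild type and 11.7 and 5.14 FPKM in the groups labelled CPL4RNAi, an averaged difference of 1.71 ± 0.31 log2 (upper bound). AT2G22620, a rhamnogalacturonate lyase family gene, was at 4.13 and 3.83 FPKM in wild type and 11.1 and 5.54 FPKM in the groups labelled CPL4RNAi. AT2G31110, a trichome birefringence-like gene, was at 4.83 and 5.79 FPKM in wild type and 19.3 and 10.6 FPKM in the groups labelled CPL4RNAi. AT3G61490, AT5G09760 and AT2G31110 were called above wild type in both media, and AT2G22620 without cytokinin.

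The highest member above wild type was AT5G61660, a glycine-rich protein gene (chromosome 5, 24778653 to 24779945, minus strand). It was at 2.26 and 2.03 FPKM in wild type and 86.1 and 26.1 FPKM in the groups labelled CPL4RNAi, an averaged difference of 4.47 ± 0.27 log2 (upper bound of the standard error). The labelled groups lay far above wild type in both media. It lies wholly inside the opposite-strand gene CYCP4;2, which was at 0.920 and 0.965 FPKM in wild type and 2.75 and 2.67 FPKM in the groups labelled CPL4RNAi. AT1G27020, a protein of unassigned function, was at 3.68 and 4.52 FPKM in wild type and 25.9 and 12.9 FPKM in the groups labelled CPL4RNAi.

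Several members encode metabolic enzymes. CYP90D1, a cytochrome P450 of brassinosteroid synthesis, was at 21.5 and 18.4 FPKM in wild type and 32.1 and 11.8 FPKM in the groups labelled CPL4RNAi. It was above wild type without cytokinin and below it with cytokinin, both called by the deposited test, and its averaged difference was -0.03 ± 0.11 log2 (upper bound). PAL2, an entry enzyme of phenylpropanoid synthesis, was at 32.6 and 38.9 FPKM in wild type and 63.2 and 32.8 FPKM in the groups labelled CPL4RNAi. FLS1, the main flavonol synthase, was at 4.13 and 3.82 FPKM in wild type and 3.1 and 1.46 FPKM in the groups labelled CPL4RNAi. PAL2 was therefore higher than wild type without cytokinin, and FLS1 lower with it. Of 17 tested lignin and phenylpropanoid genes 6 were called lower and 1 higher with cytokinin in the groups labelled CPL4RNAi, and of 18 tested in wild type 12 were called higher and 0 lower. PAL1, a close relative of PAL2, was called in both lines and in opposite directions, at 76.7 and 99.2 FPKM in wild type and 122.6 and 81.9 FPKM in the groups labelled CPL4RNAi.

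UGT74F2 and UGT74F1, glucosyltransferases that act on salicylic acid, lie 3620 bases apart on the same strand of chromosome 2 with 1 pseudogene between them. UGT74F2 was at 23.8 and 21.5 FPKM in wild type and 20.0 and 10.4 FPKM in the groups labelled CPL4RNAi. UGT74F1 was at 1.32 and 1.26 FPKM in wild type and 2.07 and 1.1 FPKM in the groups labelled CPL4RNAi. The neighbours thus had similar ratios, 0.517 and 0.538, while UGT74F2 was far the higher of them in every group. GT72B1, a glycosyltransferase of phenolic compounds, was at 18.9 and 16.8 FPKM in wild type and 29.4 and 12.3 FPKM in the groups labelled CPL4RNAi. The second neighbouring pair was DMP1, a membrane protein gene, and AT3G21530 on chromosome 3, which face each other and overlap at their ends. DMP1 was at 42.7 and 34.3 FPKM in wild type and 45.6 and 21.1 FPKM in the groups labelled CPL4RNAi. AT3G21530 was at 9.21 and 9.11 FPKM in wild type and 21.1 and 10.3 FPKM in the groups labelled CPL4RNAi. The former was level between the untreated lines and the latter was called above wild type there.

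Of the transport genes described next, UMAMIT28 was called below wild type without cytokinin, SULTR2;1 and GDU1 above it, and NRT1.9 and PCR2 neither. SULTR2;1, a low-affinity sulfate transporter of the vascular tissue, was at 6.24 and 5.74 FPKM in wild type and 19.7 and 9.30 FPKM in the groups labelled CPL4RNAi. Its averaged difference was 1.18 ± 0.15 log2 (upper bound of the standard error). Of 36 tested nutrient and water transport genes 14 were called lower and 2 higher with cytokinin in the groups labelled CPL4RNAi, and of 33 tested in wild type 11 were called lower and 3 higher. SULTR1;2, a high-affinity uptake transporter of the same family, was called lower in both lines, at 37.9 and 16.6 FPKM in wild type and 45.6 and 27.3 FPKM in the groups labelled CPL4RNAi. GDU1, which stimulates amino acid export, was at 8.92 and 8.49 FPKM in wild type and 22.7 and 9.53 FPKM in the groups labelled CPL4RNAi. The treated labelled level of GDU1 was again that of wild type. NRT1.9, a nitrate transporter of root phloem, was at 10.7 and 10.3 FPKM in wild type and 11.2 and 5.52 FPKM in the groups labelled CPL4RNAi. PCR2, a zinc and cadmium exporter, was at 97.8 and 83.2 FPKM in wild type and 106.1 and 41.5 FPKM in the groups labelled CPL4RNAi. UMAMIT28, an amino acid exporter, was at 16.6 and 14.2 FPKM in wild type and 11.9 and 6.09 FPKM in the groups labelled CPL4RNAi. All 3 were called lower than wild type with cytokinin.

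Stress and defence members included the most abundant transcript of the set. UPI, a serine protease inhibitor, was at 403.2 and 334.5 FPKM in wild type and at 395.8 and 214.1 FPKM in the groups labelled CPL4RNAi. HIR2, a membrane-associated protein of the hypersensitive response, was at 75.6 and 61.9 FPKM in wild type and 61.0 and 32.4 FPKM in the groups labelled CPL4RNAi. Both were called lower with cytokinin in wild type too, at the ratios given above. LTI30, a dehydrin of the cold and drought response, was at 78.0 and 72.0 FPKM in wild type and 29.1 and 15.3 FPKM in the groups labelled CPL4RNAi. Its averaged difference was -1.83 ± 0.13 log2 (upper bound of the standard error). CHIA, a chitinase, differed in direction from LTI30: it was at 10.7 and 11 FPKM in wild type and 24.3 and 10.9 FPKM in the groups labelled CPL4RNAi.

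GER2, a germin-like protein of the cell wall (chromosome 5, 15692542 to 15693735, minus strand), was the member farthest below wild type. It was at 25 and 28.2 FPKM in wild type and 2.95 and 1.21 FPKM in the groups labelled CPL4RNAi, an averaged difference of -3.81 ± 0.19 log2 (solved standard error). Other germin-like genes are near-identical copies, AT5G39160 with 99.7% identity over 1030 bases and AT5G39130 with 97.6% over 763 bases, so reads may be shared among them and the value of each is uncertain. AT5G39160 was at 7.06 and 8.08 FPKM in wild type and 1.1 and 0.524 FPKM in the groups labelled CPL4RNAi. AT5G39130 was at 26.5 and 30.8 FPKM in wild type and 1.7 and 1.7 FPKM in the groups labelled CPL4RNAi. All 3 were thus far lower in the labelled groups, while AT5G39130 did not share the lower level with cytokinin.

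Further members below wild type have no assigned function. AT1G13670 was at 10.2 and 9.76 FPKM in wild type and 2.02 and 0.599 FPKM in the groups labelled CPL4RNAi, an averaged difference of -3.18 ± 0.31 log2 (solved standard error). AT3G20340 was at 16.2 and 15.2 FPKM in wild type and 7.07 and 2.36 FPKM in the groups labelled CPL4RNAi. The set also holds 2 genes for noncoding RNA. AT5G07322 was at 25.1 and 20.3 FPKM in wild type and 8.82 and 4.43 FPKM in the groups labelled CPL4RNAi. AT2G15128 was at 27.3 and 27.7 FPKM in wild type and 16.9 and 8.44 FPKM in the groups labelled CPL4RNAi, and the deposited test did not call it in any of the 4 comparisons described here. Its averaged difference was -1.20 ± 0.44 log2 (solved standard error). AT5G56100, an oleosin-like glycine-rich gene, was at 13.6 and 13.7 FPKM in wild type and 6.37 and 2.93 FPKM in the groups labelled CPL4RNAi.

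The lowest ratios after LAC3 were spread over genes of little known function. AT3G06390, of the UPF0497 family of membrane proteins, was at 13.1 and 14.1 FPKM in wild type and 18.3 and 4.80 FPKM in the groups labelled CPL4RNAi. AT5G66490 was at 3.53 and 4.23 FPKM in wild type and 7.17 and 1.96 FPKM in the groups labelled CPL4RNAi. AT1G25230, a phosphoesterase superfamily gene, was at 11.8 and 9.70 FPKM in wild type and 16.8 and 4.70 FPKM in the groups labelled CPL4RNAi. Each of these 3 was called above wild type without cytokinin and below it with cytokinin. AT4G02830 was at 3.91 and 3.71 FPKM in wild type and 10.6 and 3.38 FPKM in the groups labelled CPL4RNAi. AT4G34600 was at 33.5 and 27.1 FPKM in wild type and 39.4 and 13.7 FPKM in the groups labelled CPL4RNAi. AT3G19030 was at 17.5 and 16.2 FPKM in wild type and 23.9 and 8.71 FPKM in the groups labelled CPL4RNAi. In neither were the untreated levels called different between the lines. AT2G40113, of a pollen allergen and extensin family, was at 9.64 and 7.84 FPKM in wild type and 9.66 and 3.15 FPKM in the groups labelled CPL4RNAi. Its untreated levels were equal in both lines. Among the most abundant members without a symbol, AT5G57887 was at 120.9 and 116 FPKM in wild type and 93.1 and 47.5 FPKM in the groups labelled CPL4RNAi. Of its span 99.1% lies within AT5G57880 on the same strand, so reads may be shared and its value is uncertain. AT4G16447 was at 70.4 and 58.7 FPKM in wild type and 88.2 and 37.6 FPKM in the groups labelled CPL4RNAi. Without cytokinin AT5G57887 was called below wild type and AT4G16447 above it. The remaining members lay between these extremes. Over the whole set the untreated group labelled CPL4RNAi was at 5 FPKM or more in 79 members and below it in 34, where a single ratio rests on a low level, and 55 members carry a gene symbol.

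In the annotation 111 members are protein-coding, and the 113 lie on chromosomes 1 to 5 in numbers of 32, 19, 18, 12 and 32. The shares of other genes per chromosome were not computed, so nothing is read from these numbers. The protein-coding members had a median transcript length of 1443 bases and a median of 2 exons, against 1762 bases and 5 exons for the 16378 protein-coding genes that met the FPKM minimums. A single exon was annotated in 34 of them (30.6%), against 13.8% of those genes. In the 250 bases upstream of the start, searched on both strands, AGATT was found in 55.9% of members and 62.4% of all those genes. The site II letters TGGGCC were found in 3 members (2.7%) and 18.2% of those genes, and the TATA box letters TATAAA in 57.7% and 46.0%. The letters AACGG of mitosis-specific promoters were found in 12.6% and 22.6%, the W-box TTGACC in 9.91% and 12.3%, the auxin element TGTCTC in 11.7% and 10.3% and the G-box CACGTG in 3.6% and 7.37%. The median GC content of the window was 28.8% in members and 31.2% over those genes. These shares were not tested and were not matched on level, which was lower in the members.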

How the data were processed

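Per the submitters' processing notes, reads of stranded libraries (paired, 125 nt) were handled with bcl2fastq 2.17.1.14, TopHat2 2.0.14 and Cuffdiff 2.2.1.3 on TAIR10. The authors' deposited table gives FPKM per group, and a p-value and q-value for each pair of groups, per the file headers; replicates are not shown separately. The members, lists and tests were chosen with earlier results of these data known. Log2 differences were computed from group FPKM without a pseudocount. Group variances were solved from the p-values of complementary pairs, whose floor of 5e-05 leaves an upper bound for some genes. The mean genotype difference had a normal test with Benjamini-Hochberg adjustment. Tested on simulated data for 17042 genes with solved errors and equal variances, it recovered 92.0% of log2 differences of 1. Of its 203 calls 11 (5.42%) fell on genes with no simulated difference. Errors known only as an upper bound and unequal variances were not simulated. Named were members in 16 gene lists, the 12 with the lowest ratios among those at 5 FPKM or more in the untreated groups labelled CPL4RNAi, the 8 with the highest levels, the 6 largest mean differences each way, the nearest genes at each limit of the rule and chromosome neighbours. Others described by their role, and relatives set beside members, were chosen after their values were seen. Gene spans came from RefSeq TAIR10.1, which held 32809 of the features (97.8%). Copies were sought with blastn 2.17.0 (identity of 90% over 125 bases or more). Python 3.11.15 was used with SciPy 1.17.1, pandas 2.3.3, matplotlib 3.10.9 and numpy 2.4.6. Alternatives covered the limits of the rule, thresholds, pseudocount, recentring and error model.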

Additional observations from a re-analysis of the deposited data

How the results depend on the processing

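The set depends on the limits of its rule. A ratio limit of 0.50 or 0.60 in the groups labelled CPL4RNAi gave 64 or 186 members in place of 113, a wild-type window from 0.9 to its inverse or from 0.67 to 1.5 gave 58 or 179, an FPKM minimum of 5 gave 63, no minimum gave 343 and a pseudocount of 1 gave 65. Recentring gave 120. With a 2-fold minimum, 20 members were higher and 8 lower without cytokinin, 6 and 46 with it, and 12 and 16 for the mean of both media. The shares of all genes at this minimum were not computed. These counts use the levels that the rule read, and nothing is read from them. With solved standard errors alone the mean gave 2 higher and 17 lower, a selection that tends to leave out members with the clearest genotype differences. Chosen after seeing the data, genes with all pair variances solved gave 1 higher and 3 lower of 16 by the plain mean, and 1 and 1 by the weighted mean; these keep fewer genes by construction. In all, 25 of 44 alternatives, the recentred rule included, stayed within 1.5 times the value reported. No paired analysis was possible because the file gives group values without replicates, and for the same reason no replicate could be left out.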
